A study of Mus musculus with 12 samples.

Results

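The insulin-like growth factor (IGF) system was followed through 10 genes in the newborn mouse frontal bone. They are the ligands Igf1 and Igf2, the receptors Igf1r and Igf2r, and the binding proteins Igfbp2, Igfbp3, Igfbp4, Igfbp5, Igfbp6 and Igfbp7. The genes were taken by symbol from the table of 23358 genes. Each symbol stood on a single row, and 10 of 10 passed the filter on low counts that left 16190 genes for testing. The tissue was frontal bone taken at postnatal day 3, and it included nasal bone and 2 sutures, the coronal and the frontonasal. The 4 groups of 3 samples were wild type C57BL/6, FGFR2C342Y/+ C57BL/6, wild type BALB/c and FGFR2C342Y/+ BALB/c. The mutants carry 1 altered copy of Fgfr2 and model Crouzon syndrome, a disorder of premature suture fusion. Tissue of all groups was digested with collagenase and trypsin before RNA was taken. The labels name no transgene or Cre for any group. The labels do not say whether samples came from single or pooled pups, and nothing in them says that samples are separate animals, so the p-values measure only the spread between these samples.

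IGF1 and IGF2 are secreted growth factors that signal through the tyrosine kinase receptor IGF1R, and they promote the growth and matrix production of osteoblasts, the bone-forming cells. IGF2R has no kinase, takes up IGF2 for breakdown, and also sorts lysosomal enzymes. The IGF binding proteins hold most IGF outside cells, where they can prolong its life, block its access to the receptor, or release it when a protease cuts them. Bone matrix is a major store of IGF bound to such proteins, and IGFBP5 itself binds bone mineral.

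Library totals ran from 27181658 to 46521546 deposited counts. Counts of the members in single samples ran from 102 for Igfbp6 to 185922 for Igf2, so counting error limits Igfbp6 most. All deposited counts were even, so they may be 2 times the number of sequenced fragments and the counting error larger than they imply; the sources used here do not say how mates were counted. The C57BL/6 and BALB/c samples carry different flow cell names in their labels, so strain and flow cell cannot be told apart in any comparison between strains, while genotype was compared within a flow cell. The labels give no sex. Summed counts of 4 Y-linked genes were 4846 to 6876 in all 3 C57BL/6 wild type samples, C57BL/6 mutant 6, BALB/c wild type 15 and BALB/c mutant 16, and 4 to 60 in the other samples, so this makeup was unequal between the C57BL/6 groups. Levels are given as CPM, counts-per-million of the effective library size, which is the total count over the genes tested times the TMM composition factor. Log2 CPM correlated at 0.958 between C57BL/6 mutant 4 and each of the other 2 of its group, against 0.981 to 0.991 for the other pairs within groups. Osteoblast markers were detected in every sample, with 0 of 9 at zero counts anywhere.

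Igfbp2 and Igfbp5 are neighbours that are transcribed toward each other. In the deposited table, for which the submitters' processing notes name build mm10, Igfbp2 lies at chr1:72824480-72852471 and Igfbp5 at chr1:72858065-72874865. The GENCODE annotation places Igfbp2 on the forward strand and Igfbp5 on the reverse strand, with 5593 bases between their 3' ends by the deposited positions. No other row of the table overlaps either gene. The 250 bases before the RefSeq start of each gene (GRCm38.p6) are shown because these neighbours carry the main genotype differences described below. Capitals mark matches to the GC box GGGCGG, and to the TATA words TATAAA or TATTTAA, searched on both strands.
Igfbp2, chr1:72824230-72824479, forward strand: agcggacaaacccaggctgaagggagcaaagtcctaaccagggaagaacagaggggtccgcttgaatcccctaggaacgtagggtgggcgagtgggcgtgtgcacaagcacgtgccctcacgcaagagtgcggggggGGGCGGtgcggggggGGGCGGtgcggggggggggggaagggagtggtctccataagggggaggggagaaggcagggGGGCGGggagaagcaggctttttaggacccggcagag
Igfbp5, chr1:72874866-72875115, reverse strand: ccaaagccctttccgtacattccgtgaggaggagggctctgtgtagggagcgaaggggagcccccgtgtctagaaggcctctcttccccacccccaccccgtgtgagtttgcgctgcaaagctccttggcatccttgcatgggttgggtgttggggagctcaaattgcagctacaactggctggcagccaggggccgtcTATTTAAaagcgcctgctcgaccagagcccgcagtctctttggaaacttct
The Igfbp2 window held 3 GC boxes and 0 TATA words at 67.2% GC, and the Igfbp5 window held 0 GC boxes and 1 TATA word, TATTTAA, at 58.8% GC. Among 32851 windows of the same length before RefSeq starts, 32.7% held the GC box and 15.6% held a TATA word. A match is a description of letters, not of a used site. RefSeq also lists a start inside Igfbp2, whose window at chr1:72825137-72825386 held neither word.

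**Figure D1:**
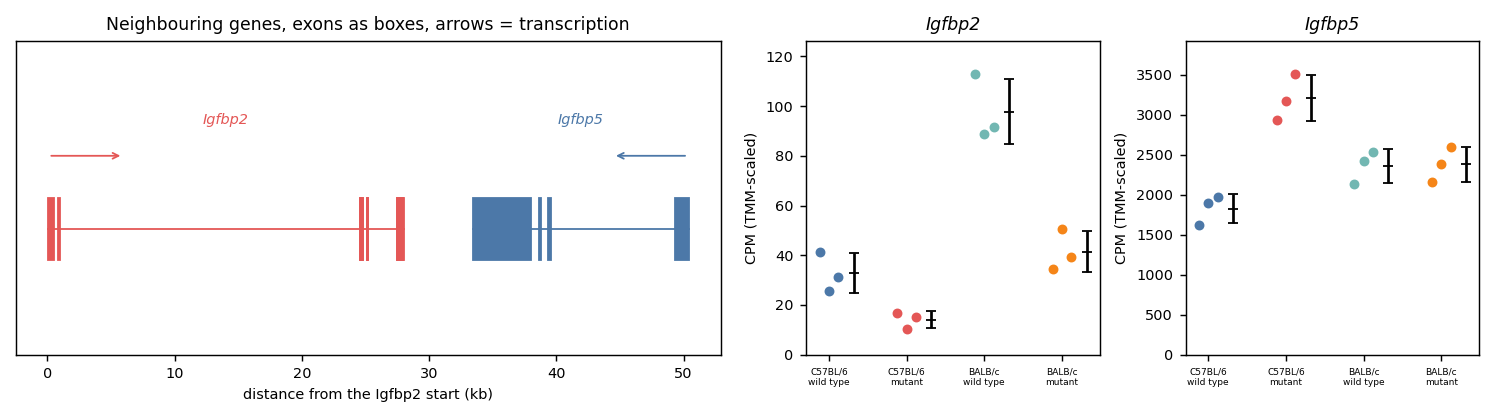
Left, GENCODE exons of Igfbp2 and Igfbp5 by distance from the Igfbp2 start in kb, with arrows for the direction of transcription. Right, CPM of both genes in each sample (points) by group, with mean and SD in black; Igfbp2 is lower in the mutants of both strains, while Igfbp5 is higher in the mutants of C57BL/6, at 2939 to 3504 against 1614 to 1966.

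Levels were compared between genes as CPM, scaled by the TMM composition factor, per kilobase of the deposited gene length. Igf2 stood first in all 4 groups, at 718 ± 108 CPM per kb in C57BL/6 wild type, 724 ± 38.7 in C57BL/6 mutants, 1032 ± 82.3 in BALB/c wild type and 864 ± 70.7 in BALB/c mutants (SD, n = 3). Igfbp5, Igfbp4 and Igfbp3 followed in that order in every group, with no overlap between the sample ranges of neighbours except that the Igfbp3 range overlapped that of Igfbp7, next in order, in C57BL/6 wild type. In C57BL/6 wild type samples they averaged 312 ± 32, 182 ± 8.92 and 65.6 ± 15.6 CPM per kb (SD, n = 3). The fifth to seventh places were held by Igfbp7, Igf2r and Igfbp2 in every group but the C57BL/6 mutants, where Igfbp2 had dropped to ninth at 10.5 ± 2.58 CPM per kb (SD, n = 3). The other ranges of neighbours that overlapped were Igf1r with Igfbp2 in C57BL/6 mutants, Igfbp7 with Igfbp2 and Igfbp6 with Igf1r in BALB/c wild type, and Igf2r with Igfbp2 and Igfbp6 with Igf1r in BALB/c mutants. Igf1r and Igfbp6 held the 2 lowest levels in every group but the C57BL/6 mutants, where Igfbp2 stood between them. Igfbp6 was last in both C57BL/6 groups and Igf1r in both BALB/c groups. Igfbp6 ran from 2.22 ± 0.614 CPM per kb in C57BL/6 mutants to 8.72 ± 4.22 in BALB/c mutants (SD, n = 3). With the authors' RPKM in place of CPM per kb, the rank of 0 members changed in any group. Both scales divide the same counts by the same lengths, so the order within a sample cannot differ and this is no separate check.

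Mutant and wild type C57BL/6 samples were compared to ask how the Crouzon allele is accompanied by changes in IGF genes on this background. Igf1 and Igfbp5 rose, Igfbp2 fell, and the other 7 members did not pass the test. In this comparison 23.9% of all genes were called, 11.3% higher and 12.6% lower, so 3 of 10 members is near the background. The median log2 fold change was 0.02 over the members and -0.00 over all genes.

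Igf1, the ligand that growth hormone induces, stood at 111, 145 and 120 CPM in the wild type samples and at 154, 169 and 189 CPM in the mutants. All 3 mutants lay above the highest wild type sample. The difference was 0.44 on the log2 scale (SE 0.10, edgeR adjusted p = 0.0102). In bulk tissue, more cells of a type and more RNA per cell cannot be told apart, here and in every comparison below. With total counts in place of TMM scaling it was 0.25 and still called. In a fit of the C57BL/6 samples alone the Igf1 call was lost at 0.44 (adjusted p = 0.0665), and without C57BL/6 mutant 6 it stood at the threshold, at 0.36 (adjusted p = 0.0499955).

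Igf2, the imprinted fetal ligand that is expressed from the paternal copy, did not pass. Its values were 2522, 3211 and 3386 CPM in wild type and 2916, 3241 and 3040 CPM in mutants, and the mutant values lay within the wild type range. The log2 difference was 0.01 (SE 0.11, edgeR adjusted p = 0.950). The receptors did not pass either. Igf1r read 135, 119 and 120 CPM in wild type and 120, 132 and 131 CPM in mutants, with overlapping ranges (log2 0.03, SE 0.09, edgeR adjusted p = 0.820). Igf2r read 363, 435 and 452 CPM in wild type and 434, 519 and 470 CPM in mutants. These ranges also overlapped (log2 0.19, SE 0.13, edgeR adjusted p = 0.303).

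Igfbp2, a binding protein with an integrin-binding motif, read 41.3, 25.5 and 31.4 CPM in wild type and 16.6, 10.1 and 15.2 CPM in mutants. Every mutant lay below every wild type sample. It was 2.35-fold lower in the mutants (log2 -1.23, SE 0.21, edgeR adjusted p = 0.00276). Igfbp5, the binding protein held in bone matrix, read 1614, 1899 and 1966 CPM in wild type and 2939, 3176 and 3504 CPM in mutants. The lowest mutant thus lay well above the highest wild type sample, and the gene was 1.75-fold higher (log2 0.81, SE 0.11, edgeR adjusted p = 6.62e-04). These neighbouring genes therefore moved in opposite directions on this background.

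The other 4 binding proteins did not pass in C57BL/6. Igfbp3, the main carrier of IGF in blood, averaged 160 ± 38.1 CPM in wild type and 160 ± 24.2 CPM in mutants (SD, n = 3). Igfbp4, which the protease PAPP-A cuts, averaged 375 ± 18.4 and 384 ± 17 CPM (SD, n = 3). Igfbp6, which prefers IGF2, read 3.85, 6.44 and 2.84 CPM in wild type and 2.30, 2.52 and 3.77 CPM in mutants, and these ranges overlapped (log2 -0.61, SE 0.38, edgeR adjusted p = 0.259). That value was -0.27 with a Y-linked covariate and -0.22 without C57BL/6 wild type 2, and reached -0.86 without C57BL/6 mutant 6. Igfbp7, a relative with low affinity for IGF, read 64.2, 64.6 and 66.4 CPM in wild type and 56.9, 58.9 and 50.8 CPM in mutants. Its ranges did not overlap, but the difference missed the threshold (log2 -0.23, SE 0.11, edgeR adjusted p = 0.152). With total counts in place of TMM scaling the median gene shifted by -0.20 in this comparison and 13.2% rather than 47.5% of calls were higher. Under it Igfbp7 passed, at -0.42 (adjusted p = 0.0266), and the signs of Igf2, Igf1r, Igf2r, Igfbp3 and Igfbp4 turned while staying uncalled.

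**Figure D2:**
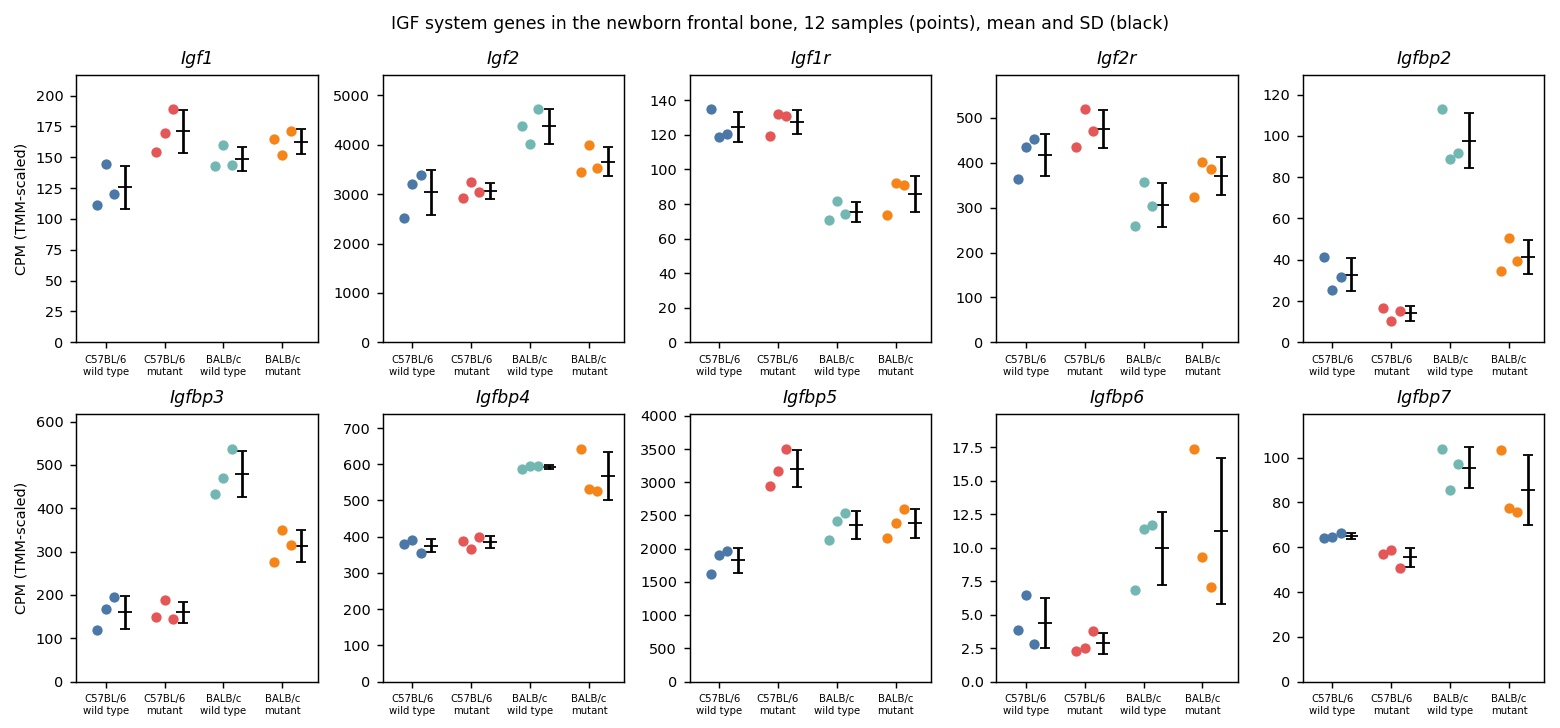
CPM of each of the 10 genes (y axis, linear from 0) by group, 1 point per sample, with mean and SD in black. Within C57BL/6 the ranges of the 2 genotypes separate for Igf1, Igfbp2, Igfbp5 and Igfbp7, and within BALB/c for Igf2, Igfbp2 and Igfbp3.

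The same contrast in BALB/c asked whether the allele went with like changes on the other background. Only 0.136% of all genes were called there (22 of 16190 by edgeR), 0.0926% higher and 0.0432% lower, and 1 of 10 members was among them. At an unadjusted p under 0.05 there were 1901 genes and 3 members, Igfbp2, Igfbp3 and Igf2. Igfbp2 read 113, 88.7 and 91.6 CPM in wild type and 34.4, 50.4 and 39.4 CPM in mutants. Every mutant lay below every wild type sample, and the gene fell by 1.24 on the log2 scale (SE 0.21, edgeR adjusted p = 0.0487). This call sits at the threshold. It was lost, with log2 values of -1.25 to -1.20, under RLE size factors (adjusted p = 0.0501), total counts (0.0902), a filter of 1 CPM (0.0571) and a Y-linked covariate (0.0648). It was also lost without BALB/c wild type 13 (-1.11, adjusted p = 0.198) or 15 (-1.28, 0.197), and without BALB/c mutant 16 (-1.11, 0.0985), 17 (-1.40, 0.0784) or 18 (-1.20, 0.217). Over all genes 0 were called without wild type 13 or 15, 6 without mutant 16 and 2 without mutant 17 or 18. There were 21 with RLE size factors, 19 with the filter of 1 CPM, and 4 with total counts or with the Y-linked covariate. In the authors' deposited table Igfbp2 differed by -0.91 in BALB/c (q = 0.0476) and by -0.85 in C57BL/6 (q = 0.00991).

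Igfbp3 read 433, 469 and 537 CPM in BALB/c wild type and 277, 350 and 315 CPM in BALB/c mutants. The ranges did not overlap, yet the difference did not pass over all genes (log2 -0.61, SE 0.17, edgeR adjusted p = 0.177). It passed with DESeq2 (-0.61, adjusted p = 0.00816) and in a fit of the BALB/c samples alone (-0.61, adjusted p = 0.0396), and the authors' deposited table gives -0.57 (q = 0.00564). Igf2 read 4385, 4018 and 4714 CPM in wild type and 3447, 4002 and 3528 CPM in mutants. Its highest mutant lay just under its lowest wild type sample (log2 -0.26, SE 0.11, edgeR adjusted p = 0.393).

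Igf1 and Igfbp5, which rose in C57BL/6, showed no such separation in BALB/c. Igf1 read 142, 160 and 144 CPM in wild type and 165, 152 and 172 CPM in mutants, with overlapping ranges (log2 0.13, SE 0.10, edgeR adjusted p = 0.687). Igfbp5 read 2127, 2416 and 2538 CPM in wild type and 2161, 2383 and 2598 CPM in mutants. These ranges nearly coincided (log2 0.01, SE 0.11, edgeR adjusted p = 0.989). Igf1r averaged 75.5 ± 5.59 and 85.7 ± 10.3 CPM and Igf2r 306 ± 49.4 and 371 ± 41.9 CPM in wild type and mutants (SD, n = 3), with overlapping ranges. Igfbp4, Igfbp6 and Igfbp7 also overlapped, with log2 differences of -0.06, 0.17 and -0.16. When each sample was left out these ran from -0.16 to -0.01, -0.28 to 0.42 and -0.31 to -0.08. BALB/c mutant 16 was the highest mutant for each, at 643, 17.4 and 103 CPM. The median log2 fold change in BALB/c was -0.03 over the members and 0.00 over all genes.

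The genotype effects of the strains were then compared directly, as the effect in BALB/c minus the effect in C57BL/6. Of all genes 10% were called, 5.46% with a higher and 4.58% with a lower value in BALB/c, and 1 of 10 members was called, again a share at the background. Igfbp5 was that member, with a difference of -0.80 (SE 0.15, edgeR adjusted p = 0.00984). It was called in 8 of 8 other settings and without any 1 of the 12 samples. The effects on Igfbp2 were -1.23 and -1.24, and their difference of -0.01 had an SE of 0.30 (edgeR adjusted p = 0.999). For Igf1 the difference was -0.31 (SE 0.14, edgeR adjusted p = 0.169), so its effects were not shown to differ between strains. For Igfbp3 it was -0.61 (SE 0.23, edgeR adjusted p = 0.110), past the threshold with DESeq2 (-0.61, adjusted p = 0.0350) and without C57BL/6 wild type 3 (-0.77, adjusted p = 0.0462).

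Averaged over strains, 7.99% of all genes were called, 4.71% higher and 3.28% lower, and 3 of 10 members passed. They were Igfbp2 at -1.23 (SE 0.15, edgeR adjusted p = 0.00179), Igfbp5 at 0.41 (SE 0.07, edgeR adjusted p = 0.00836) and Igf1 at 0.29 (SE 0.07, edgeR adjusted p = 0.0323). The Igfbp5 average joins effects that differ between the strains. The Igf1 call was lost with total counts (0.21, adjusted p = 0.0628), with a Y-linked covariate (0.30, adjusted p = 0.0521) and in 7 of 12 fits that each left out a sample. Those were without C57BL/6 wild type 3 (0.28), C57BL/6 mutant 5 (0.29) or 6 (0.25), BALB/c wild type 13 (0.28) or 15 (0.28), and BALB/c mutant 16 (0.29) or 18 (0.27).

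**Figure D3:**
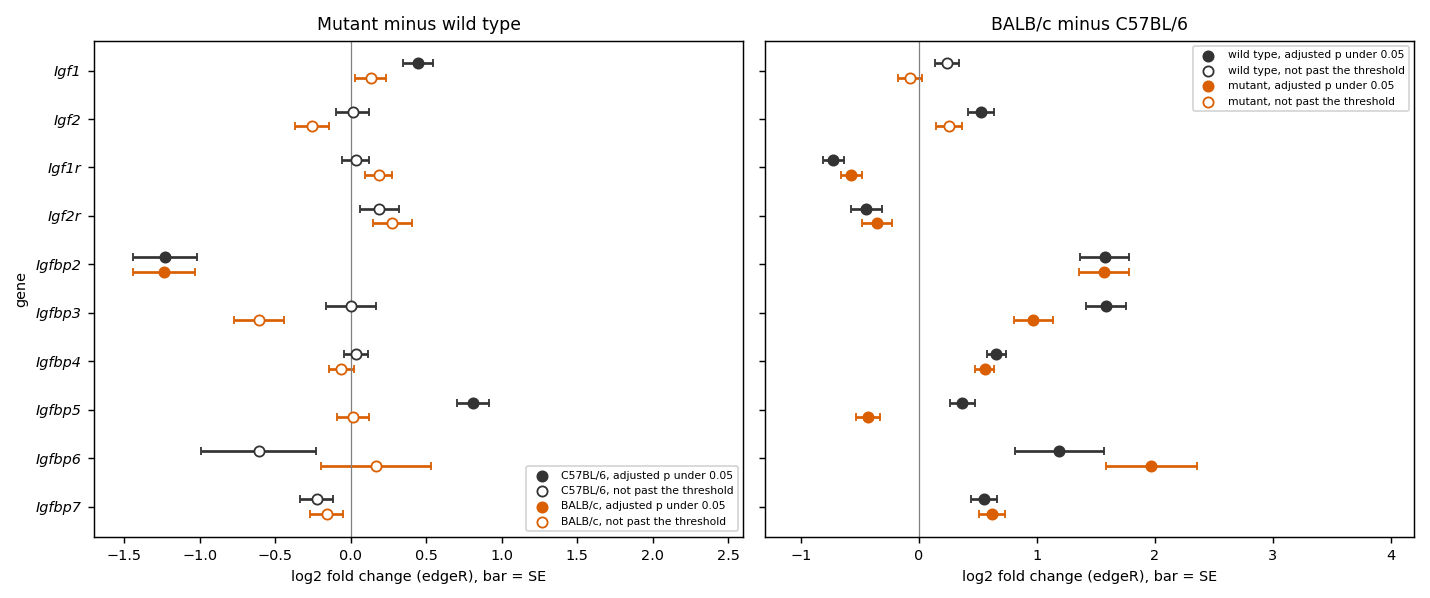
Log2 fold changes with SE of the 10 genes from edgeR, genotype effects in each strain on the left and strain effects in each genotype on the right; filled points have an adjusted p under 0.05. Igfbp2 lies at -1.23 and -1.24 in the 2 strains, while Igfbp5 lies at 0.81 in C57BL/6 and 0.01 in BALB/c; the binding proteins lie to the right of 0 in the strain comparison, except Igfbp5 in mutants.

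More members were called between the strains than between the genotypes. Between wild type groups 9 of 10 members were called, against 48.5% of all genes, with 7 higher in BALB/c (background 22.8%) and 2 lower (background 25.6%). The median log2 difference was 0.54 over the members and -0.00 over all genes. The 6 binding proteins were all higher in BALB/c, and both receptors were lower. Cell type markers also differed between the wild type groups. In BALB/c, chondrocyte sums were 577 to 1688 against 4602 to 6758 CPM (3 of 6 lower), epithelial sums 2.66 to 3.31 against 123 to 225 CPM (6 of 6 lower) and olfactory and ciliated sums 153 to 184 against 409 to 850 CPM (5 of 6 lower). Brain sums were 17.3 to 17.9 against 74.1 to 140 CPM (3 of 5 tested lower). Neutrophil sums were 470 to 552 against 173 to 313 CPM (4 of 6 higher) and adipocyte sums 76.7 to 99.7 against 44.9 to 47.8 CPM (1 of 3 tested higher), while osteoblast sums overlapped (3 of 9 higher, 1 lower). Meningeal sums were 140 to 166 against 112 to 118 CPM (3 of 6 tested higher, 2 lower), smooth muscle sums 198 to 215 against 222 to 260 CPM (0 of 5 called) and Schwann cell sums 22.6 to 25.0 against 35.1 to 64.4 CPM (1 of 4 lower). Of the erythroid markers 5 of 8 were higher, with overlapping sums. The part of these cell types in the strain differences was not tested.

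Among the ligands, Igf2 was 1.44-fold higher in BALB/c wild type (log2 0.52, SE 0.11, edgeR adjusted p = 0.00247), and the sample ranges given above did not overlap. Igf1 did not pass (log2 0.24, SE 0.10, edgeR adjusted p = 0.0673), except without C57BL/6 wild type 2 (0.36, adjusted p = 0.0108). Igf1r read 70.8, 81.6 and 74.0 CPM in BALB/c wild type, all below the lowest C57BL/6 wild type sample at 119 CPM. It was 1.65-fold lower (log2 -0.72, SE 0.09, edgeR adjusted p = 9.23e-05). Igf2r read 259, 358 and 303 CPM in BALB/c wild type, also below every C57BL/6 wild type sample (log2 -0.44, SE 0.13, edgeR adjusted p = 0.0137). That call was lost without BALB/c wild type 13 (-0.34, adjusted p = 0.0612).

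Of the binding proteins, Igfbp3 and Igfbp2 differed most between wild type strains, 3.00-fold (log2 1.58, SE 0.17, edgeR adjusted p = 3.24e-05) and 2.98-fold (log2 1.58, SE 0.21, edgeR adjusted p = 1.32e-04). The lowest BALB/c wild type sample held 433 CPM of Igfbp3, and the highest C57BL/6 wild type sample held 194. Igfbp4 read 586, 596 and 595 CPM in BALB/c wild type, against at most 392 CPM in C57BL/6 wild type (log2 0.66, SE 0.08, edgeR adjusted p = 7.75e-05). Igfbp7 read 104, 85.8 and 97.0 CPM, against at most 66.4 (log2 0.55, SE 0.11, edgeR adjusted p = 0.00183). Igfbp5 was 1.29-fold higher (log2 0.37, SE 0.11, edgeR adjusted p = 0.0126), a call lost without BALB/c wild type 15 (0.32, adjusted p = 0.0515). Igfbp6 read 6.84, 11.4 and 11.7 CPM, above at most 6.44 in C57BL/6 wild type (log2 1.19, SE 0.38, edgeR adjusted p = 0.0203). Its call was lost without C57BL/6 wild type 1 (1.11, adjusted p = 0.0589) or 3 (0.96, 0.0729), and without BALB/c wild type 14 (1.09, 0.0603) or 15 (1.07, 0.0669).

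Between the mutant groups 8 of 10 members were called, against 36.9% of all genes, with 5 higher in BALB/c (background 18%) and 3 lower (background 18.9%). The median log2 difference was 0.41 over the members and -0.00 over all genes. Between mutants, too, neutrophil (6 of 6), erythroid (7 of 8) and skeletal muscle markers (6 of 6) were higher in BALB/c, the last with overlapping sums (398, 24.8 and 3.35 against 1.41 to 4.80 CPM) that were highest in BALB/c mutant 16, and osteoclast markers (5 of 5) and osteoblast markers (5 of 9, with 2 higher) lower. Macrophage sums were 331 to 353 against 475 to 546 CPM (3 of 4 lower), adipocyte sums 78.5 to 103 against 53.5 to 61.4 CPM (3 of 3 tested higher) and meningeal sums 138 to 162 against 115 to 120 CPM (3 of 6 tested higher). Of the smooth muscle markers 2 of 5 were higher, with overlapping sums. Their part in the differences was not tested. Igfbp2 was 2.97-fold higher in BALB/c mutants (log2 1.57, SE 0.21, edgeR adjusted p = 1.77e-04), and the lowest BALB/c mutant at 34.4 CPM lay above the highest C57BL/6 mutant at 16.6 CPM. Igfbp3, Igfbp4 and Igfbp7 were 1.96-fold, 1.47-fold and 1.54-fold higher (edgeR adjusted p = 8.49e-04, 2.54e-04 and 0.00111). Igfbp6 read 17.4, 9.30 and 7.04 CPM in BALB/c mutants, above every C57BL/6 mutant (log2 1.97, SE 0.38, edgeR adjusted p = 0.00191). BALB/c mutant 16, the highest, also held the most counts of skeletal muscle and Schwann cell markers, 398 and 412 CPM summed over 6 and 4 genes, against at most 24.8 and 27.6 in the other 2 of its group, and their part in the Igfbp6 value was not tested. Without that sample Igfbp6 was still higher (log2 1.52, between 1.52 and 2.22 over the fits that each left out a sample).

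Igfbp5 turned its order. It was higher in BALB/c among wild type samples and lower in BALB/c among mutants, at 2161, 2383 and 2598 CPM against 2939, 3176 and 3504 CPM in C57BL/6 mutants, with no overlap (log2 -0.43, SE 0.11, edgeR adjusted p = 0.00759). Igf1r was 1.49-fold lower in BALB/c mutants (log2 -0.57, SE 0.09, edgeR adjusted p = 4.85e-04). Igf2r was lower by a smaller margin (log2 -0.36, SE 0.13, edgeR adjusted p = 0.0469). The Igf2r call was lost with total counts (-0.24, adjusted p = 0.105), with no filter (-0.35, adjusted p = 0.0606), without C57BL/6 mutant 5 (-0.28) or 6 (-0.36), and without BALB/c mutant 16 (-0.26), 17 (-0.41) or 18 (-0.39). Igf2 did not pass in mutants although its ranges did not overlap (log2 0.26, SE 0.11, edgeR adjusted p = 0.0892), and passed with DESeq2 (0.24, adjusted p = 0.0468), with total counts (0.37, adjusted p = 0.00271) and in a fit of the mutants alone (0.27, adjusted p = 0.0111). Igf1 differed by -0.07 (SE 0.10, edgeR adjusted p = 0.618).

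The binding protein transcripts were also described as a pool, each gene's CPM per kb as a share of the sum over the 6 Igfbp genes, with no test. The summed level was 641 ± 40.2 CPM per kb in C57BL/6 wild type, 858 ± 47.6 in C57BL/6 mutants, 1046 ± 49.8 in BALB/c wild type and 920 ± 3.95 in BALB/c mutants (SD, n = 3). Igfbp5 made up 48.6% ± 2.02 of the pool in C57BL/6 wild type and 63.8% ± 2.10 in C57BL/6 mutants, against 38.5% ± 1.87 and 44.2% ± 3.90 in BALB/c wild type and mutants (SD, n = 3). The lowest C57BL/6 mutant held 61.8% Igfbp5, above the highest share in any other group, 50.3%. Igfbp2 made up 3.90% ± 1.20 in C57BL/6 wild type and 1.23% ± 0.327 in C57BL/6 mutants, and 7.07% ± 1.24 and 3.39% ± 0.677 in BALB/c wild type and mutants (SD, n = 3). Since shares sum to a fixed whole, the shares of Igfbp3 and Igfbp4 in C57BL/6 mutants, 7.67% and 21.7% against 10.2% and 28.4% in wild type, sit beside CPM values that hardly differed. In BALB/c, Igfbp3 held 18.7% ± 1.17 of the pool in wild type and 14% ± 1.65 in mutants (SD, n = 3).

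**Figure D4:**
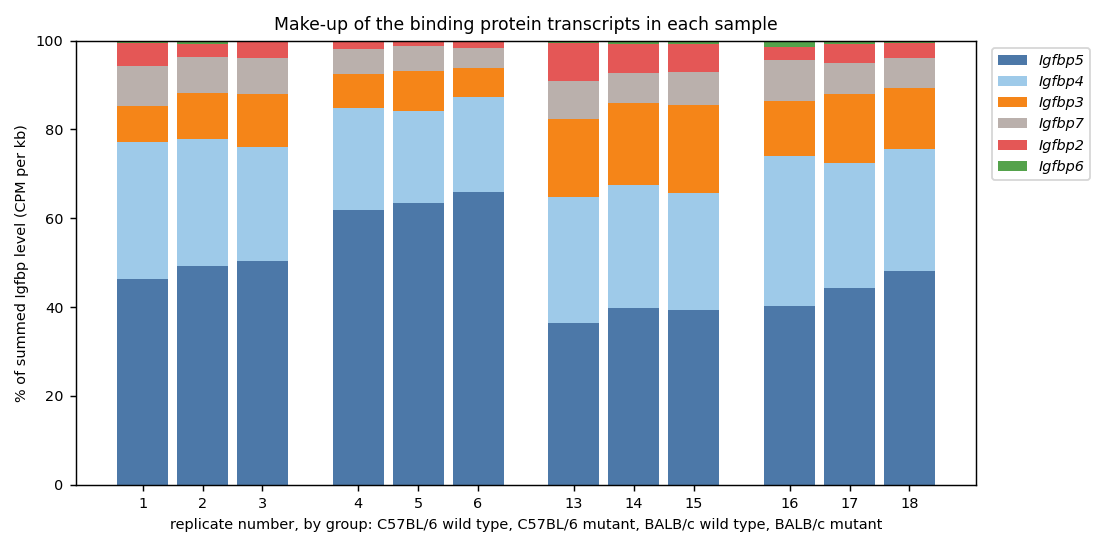
Share of each binding protein gene in the summed Igfbp level (CPM per kb, y axis in percent) for each of the 12 samples, grouped as C57BL/6 wild type, C57BL/6 mutant, BALB/c wild type and BALB/c mutant. The Igfbp5 segment is tallest in the C57BL/6 mutants, at 63.8% on average, and the Igfbp2 segment is thinnest there, at 1.23%.

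Ratios within a sample do not depend on the scaling of the library. The Igfbp5 to Igfbp2 ratio of CPM per kb was 8.86, 16.9 and 14.2 in C57BL/6 wild type and 40.2, 71.4 and 52.3 in C57BL/6 mutants. In BALB/c it was 4.27, 6.17 and 6.28 in wild type and 14.3, 10.7 and 14.9 in mutants. The mutant ratios lay above the wild type ratios in both strains, and the BALB/c mutants lay within the range of the C57BL/6 wild type samples. The Igf2 to Igf1 ratio was 41.8, 40.9 and 51.8 in C57BL/6 wild type and 34.8, 35.3 and 29.7 in C57BL/6 mutants, without overlap. In BALB/c it was 56.8, 46.5 and 60.6 in wild type and 38.6, 48.6 and 38.0 in mutants, which overlapped. The Igf2r to Igf1r ratio averaged 4.53 ± 0.789, 4.99 ± 0.254, 5.43 ± 0.486 and 5.81 ± 0.100 in the same order of groups (SD, n = 3), and the ranges overlapped between the genotypes of both strains.

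Markers of bone cells and of some other cell types moved with the C57BL/6 differences. The C57BL/6 counts below stand beside 11.3% of all genes higher and 12.6% lower in that comparison. In C57BL/6 mutants 7 of 9 osteoblast markers were higher, and their summed level was 117500 to 142400 CPM against 62230 to 109700 in wild type. In a fit of the C57BL/6 samples alone 1 of the 9 was higher, where 716 of 15828 genes were. All 5 of 5 osteoclast markers were higher, at 7265 to 8105 CPM summed against 3452 to 4220, with 0 of 5 at zero counts in a sample, and 2 of the 4 macrophage markers tested were higher (475 to 546 against 265 to 335). Endothelial (2 of 5 higher, 404 to 491 against 326 to 391 CPM) and adipocyte sums (1 of 3 tested higher, 53.5 to 61.4 against 44.9 to 47.8 CPM) also did not overlap. In BALB/c mutants, where 0.136% of all genes were called, 0 markers of these lists were called by edgeR, 1 osteoblast marker was higher at an unadjusted p under 0.05, and so was 1 endothelial marker while another was lower. The summed levels of bone cells overlapped those of wild type (osteoblast 101300 to 109500 against 99530 to 112900, osteoclast 4328 to 4952 against 4166 to 4955 CPM). These sums thus moved with Igf1 and Igfbp5 in C57BL/6, and their part in those results was not tested. Markers of other cell types were lower in C57BL/6 mutants, as Igfbp2 was, and their part in its value was not tested. The lists were chondrocyte (3 of 6 lower, 262 to 2602 against 4602 to 6758 CPM), epithelial (3 of 6 lower, 3.40 to 68.5 against 123 to 225 CPM), erythroid (4 of 8 lower, 47.4 to 74.9 against 178 to 242 CPM) and neutrophil (4 of 6 lower, 92.8 to 193 against 173 to 313 CPM, which overlapped). C57BL/6 mutant 4 stood apart in the chondrocyte and epithelial sums, at 2602 and 68.5 CPM, against at most 272 and 4.69 CPM in mutants 5 and 6. Sums were also lower for olfactory and ciliated epithelium (2 of 6 lower, 103 to 280 against 409 to 850 CPM), brain (2 of 5 tested lower, 12.95 to 52.1 against 74.1 to 140 CPM) and smooth muscle (1 of 5 lower, 152 to 168 against 222 to 260 CPM). With 12.6% of all genes lower, 1 of 5 smooth muscle markers is near the background. Among the markers of these lists, Krt5, Krt8, Krt14, Krt18, Hbb-b1, Bpifa1, Cyp2g1, Sec14l3, Neurod1 and Ttr had zero counts in at least 1 sample. In BALB/c 0 markers of these lists were called by edgeR, where 0.136% of all genes were called. At an unadjusted p under 0.05, where 1901 of all genes stood, were 5 erythroid, 2 neutrophil, 2 brain, 3 smooth muscle, 1 Schwann cell and 6 of 6 skeletal muscle markers, all higher in mutants by the fit. Erythroid sums were 380 to 469 CPM in BALB/c mutants against 190 to 302 in wild type, and neutrophil sums 658 to 729 against 470 to 552. Neither overlapped, and both were higher in mutants, unlike in C57BL/6. BALB/c mutant 16 alone was above every wild type sample in the smooth muscle sum (373 against 198 to 215 CPM, with 157 and 160 in the other mutants), and it held most of the skeletal muscle sum (398, 24.8 and 3.35 against 3.68 to 7.85 CPM), of the Schwann cell sum (412, 27.6 and 19.98 against 22.6 to 25.0 CPM) and of the brain sum (149, 19.1 and 17.4 against 17.3 to 17.9 CPM). In the smooth muscle, skeletal muscle and Schwann cell lists the lowest mutant lay below every wild type sample. Chondrocyte sums in BALB/c were 577 to 1688 CPM in wild type and 1233, 4817 and 993 CPM in mutants 16, 17 and 18, with only mutant 17 above every wild type sample. Suture mesenchyme markers, the cells between the bones, had 2 of 7 higher and 2 lower in C57BL/6 mutants (sums 1822 to 1983 against 1819 to 2534 CPM), and 0 called and 1 lower at an unadjusted p under 0.05 in BALB/c mutants (1750 to 1965 against 1897 to 2213 CPM). Meningeal markers, whose cells line the skull, summed to 112 to 118 CPM in C57BL/6 wild type and 115 to 120 CPM in C57BL/6 mutants, with 1 of 6 tested higher, 2 lower and Ptgds at zero counts in at least 1 sample.

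The wider IGF axis was taken as a list of 18 other genes, such as IGF-releasing proteases, growth hormone signalling and IGF2 mRNA-binding proteins, of which 16 were tested. In C57BL/6 mutants 3 rose and 1 fell, 4 of 16 beside the 23.9% of all genes called, so a share near the background. The list median was 0.10 against -0.00 over all genes. Adam12, a metalloprotease reported to cut IGFBP3 and IGFBP5, read 158, 235 and 220 CPM in wild type and 299, 325 and 361 CPM in mutants. It was 1.60-fold higher with no overlap (log2 0.68, SE 0.13, edgeR adjusted p = 0.00487). Ghr, the growth hormone receptor, was higher by 0.40 (SE 0.06, edgeR adjusted p = 0.00138) and Stat5a, a transcription factor that it activates, by 0.30 (SE 0.08, edgeR adjusted p = 0.0242). Pappa, which encodes the protease PAPP-A that cuts IGFBP4, read 10.9, 8.01 and 8.69 CPM in wild type and 5.29, 5.24 and 4.69 CPM in mutants. All mutants were below all wild type samples (log2 -0.86, SE 0.25, edgeR adjusted p = 0.0309). The Ghr call was lost with total counts (0.20, adjusted p = 0.0696). The Stat5a call was lost with total counts (0.10), in the C57BL/6 samples alone (0.30) and without C57BL/6 wild type 2 (0.27) or C57BL/6 mutant 5 (0.25) or 6 (0.30). The Pappa call was lost without C57BL/6 wild type 1 (-0.70), C57BL/6 mutant 5 (-0.88) or 6 (-0.81). With total counts the list stood at 1 higher and 4 lower, where 13.2% of the 4680 calls over all genes were higher.

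In BALB/c, where edgeR called 0.136% of all genes and 1901 of 16190 were at an unadjusted p under 0.05, 0 of the 16 were called by edgeR and by DESeq2, with 4 lower and 0 higher at that unadjusted p. DESeq2 called 323 of the 16190 genes there. These background values hold for the BALB/c counts of the lists below too. Ghr differed by -0.13 there, and its effects in the 2 strains differed by -0.53 (SE 0.08, edgeR adjusted p = 0.00492), a call lost with total counts (-0.30, adjusted p = 0.0890). Averaged over strains Adam12 was higher (log2 0.41, SE 0.09, edgeR adjusted p = 0.0243), a call lost without C57BL/6 mutant 6 (0.37), BALB/c wild type 13 (0.40) or 15 (0.38), or BALB/c mutant 17 (0.41) or 18 (0.38).

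Genes that act after IGF1R and the insulin receptor formed a list of 27, all tested. In C57BL/6 mutants 10 were higher and 0 lower, beside 11.3% of all genes higher and 12.6% lower, with a list median of 0.15 against -0.00 over all genes. Those with the largest changes were Eif4ebp1, a brake on translation controlled by mTOR (log2 0.48, SE 0.12, edgeR adjusted p = 0.0161), and Pik3r1, a regulatory subunit of PI3-kinase. Pik3r1 read 124, 136 and 139 CPM in wild type and 170, 194 and 183 CPM in mutants (log2 0.46, SE 0.06, edgeR adjusted p = 8.77e-04), and was still called with total counts, at 0.26. The adaptors Grb14 and Gab1 followed at 0.37 and 0.26 (edgeR adjusted p = 0.0256 and 0.0233). All of these except Pik3r1 lost their calls with total counts (0.29, 0.17 and 0.06 for Eif4ebp1, Grb14 and Gab1), in the C57BL/6 samples alone (0.47, 0.37 and 0.26) and without C57BL/6 mutant 6 (0.43, 0.30 and 0.20). Grb14 and Gab1 also lost them without C57BL/6 wild type 2 (0.37 and 0.24) or 3 (0.31 and 0.23), and Gab1 without C57BL/6 mutant 5 (0.26). The count depended on the scaling and on samples. It was 1 higher and 2 lower with total counts, 1 higher in a fit of the C57BL/6 samples alone, 7 with a Y-linked covariate, 1 without C57BL/6 mutant 6, 5 without C57BL/6 mutant 5, and 6 without C57BL/6 wild type 2. Over all genes the calls that were higher also fell, from 1835 of 16190. In the same order of settings they were 616, 716 of 15828, 1405, 840, 1089 and 1549. In BALB/c 0 of 27 were called by edgeR, 1 by DESeq2, and 2 were at an unadjusted p under 0.05. Averaged over strains 3 of 27 were higher, beside 4.71% of all genes. They were Foxo3, a transcription factor that AKT holds out of the nucleus (log2 0.41, SE 0.09, edgeR adjusted p = 0.0204), Pik3r1 (0.29, edgeR adjusted p = 0.00408) and Gab1 (0.20, edgeR adjusted p = 0.0385). The Foxo3 call was lost with total counts (0.32) and without C57BL/6 mutant 6 (0.36), BALB/c wild type 13 (0.36) or 15 (0.38), or BALB/c mutant 17 (0.40) or 18 (0.38). The Gab1 call was also lost with total counts (0.11, adjusted p = 0.293) and with a Y-linked covariate (0.20, adjusted p = 0.0620), and it was kept in 3 of 12 fits that left out a sample, with values from 0.17 to 0.24.

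Igf2 and Igf2r belong to the imprinted genes, which are expressed from 1 parental copy. Of 14 other imprinted growth genes tested, 0 were higher and 4 lower in C57BL/6 mutants, beside 11.3% of all genes higher and 12.6% lower. The 4 of 14 called either way is near the 23.9% of all genes, and the list median was -0.19 against -0.00. Meg3, a noncoding RNA, read 316, 313 and 292 CPM in wild type and 182, 158 and 169 CPM in mutants, with no overlap (log2 -0.85, SE 0.11, edgeR adjusted p = 5.55e-04). The others were Magel2, Nnat and Peg3 at -1.59, -1.15 and -0.60 (edgeR adjusted p = 0.0135, 0.00969 and 0.00847). Low depth limits Magel2 and Nnat, with 24 to 72 and 124 to 280 deposited counts a sample in C57BL/6 mutants. With total counts 9 were lower, and in the C57BL/6 samples alone 2, as Nnat (-1.15) and Magel2 (-1.59) lost their calls there. Over all genes 4680 of 16190 were called with total counts, 13.2% of them higher, and 1458 of 15828 in the C57BL/6 samples alone. Magel2 also lost it without C57BL/6 mutant 6 (-1.38). H19, the maternally expressed neighbour of Igf2, was not called (log2 -0.13, SE 0.11, edgeR adjusted p = 0.392). In BALB/c 0 were called by edgeR and 1 by DESeq2, with 3 lower at an unadjusted p under 0.05. Averaged over strains Meg3 (-0.52, edgeR adjusted p = 0.00321) and Cdkn1c, a cell cycle inhibitor (-0.28, edgeR adjusted p = 0.0169), were lower, Cdkn1c not without BALB/c mutant 18 (-0.27, adjusted p = 0.0526). Of all genes 3.28% were lower in that average.

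Genes whose log2 CPM followed a member most closely over the 12 samples were ranked among 12849 genes, as a description, since the samples share strain, flow cell and genotype. Igf1 was followed by Adamts17 (Pearson r 0.975), Slc45a3 (0.941) and Pdk4 (0.938). Adamts17, a metalloprotease, averaged 41.1 and 72.5 CPM in C57BL/6 wild type and mutants and 52.5 and 61.6 CPM in BALB/c. Igfbp2 was followed by Smoc1 (0.972), Cacna2d2 (0.970) and Bai2 (0.965). Smoc1, a secreted matrix protein, averaged 8.45 and 4.59 CPM in C57BL/6 wild type and mutants and 17.4 and 9.03 CPM in BALB/c. Igfbp5 was followed by Ctsb (0.977), Tcirg1 (0.975) and Dapk2 (0.974). Tcirg1, a proton pump subunit that osteoclasts need to resorb bone, averaged 168 and 290 CPM in C57BL/6 wild type and mutants and 219 and 228 CPM in BALB/c.

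Within the family, Igf2 and Igfbp3 had an r of 0.956 over the 12 samples and 0.890 after the group means were removed. Igf1 and Igfbp5 had 0.829 and 0.582. Igf1r and Igfbp7 had -0.954 and -0.837, and Igf1r and Igfbp4 -0.964 and -0.622. Igfbp2 and Igfbp5, the neighbours, had -0.463 and -0.337. Values without group means rest on 3 samples a group that share depth and tissue makeup.

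Some members overlap other genes in the deposited table, and whether the counting used strand is not given in the sources used here, so reads of such a pair may not be told apart. Igf2 overlaps Igf2as, whose counts came to 0.33% of those of Igf2. Igf2r overlaps Airn, whose counts came to 2.14% of those of Igf2r. Igfbp7 shares 89 bases with Polr2b, whose whole count came to 67.0% of that of Igfbp7. Igf1, Igf1r, Igfbp2, Igfbp3, Igfbp5 and Igfbp6 overlap 0 other rows. In coordinates of the deposited table the other members lie at chr10:87859056-87937047 (Igf1), chr7:142650768-142661035 (Igf2), chr7:67952257-68233667 (Igf1r), chr17:12682406-12769706 (Igf2r), chr11:7206091-7213923 (Igfbp3), chr11:99041260-99052643 (Igfbp4), chr15:102144186-102149512 (Igfbp6) and chr5:77349240-77408045 (Igfbp7).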

How the data were processed

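RNA of 12 samples in 4 groups of 3 was sequenced from libraries made with an Illumina mRNA kit, per the labels' protocols. The authors deposited gene counts, an RPKM value and a length for each of 23358 genes, and a table of log2 fold changes with p-values and q-values from their own comparisons. The submitters' processing notes name bcl2fastq, TopHat2 2.0.6, HTSeq, DESeq2 and mm10; strand setting and annotation are not given in the sources used here. All deposited counts were even (0 odd values). The authors' deposited log2 values, p-values and q-values are printed only where their table is named. The deposited RPKM served as an alternative scale, though it rests on the same counts and lengths. 0 value columns belonged to no sample.

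Counts were analysed with edgeR 4.0.16 in R 4.3.3: filterByExpr (minimum count 10, total 15), TMM scaling, 1 quasi-likelihood fit of 4 group means to 12 samples, 6 contrasts, and Benjamini-Hochberg adjustment over 16190 genes. Genes with an adjusted p under 0.05 are termed called. SE values follow from the F statistic. The fit was tested on simulated data. Alternatives were DESeq2 1.42.0, limma 3.58.1 (voom), RLE factors, total counts, 2 other filters, halved counts, compared groups alone, a covariate from 4 Y-linked genes, and leaving out each sample. All 10 members were named. From each of 3 pathway lists, up to 4 called genes per direction and genotype contrast with the largest log2 change and a mean of at least 1 CPM could be named; H19 was named outside this rule, after its values were seen, as the neighbour of Igf2. For each member called between genotypes, the 3 genes with the highest r were named, leaving out predicted genes. Members and lists were chosen with earlier results of these data known. Promoter windows came from RefSeq (GRCm38.p6), with 10 of 10 members matched. Strands and exons came from GENCODE.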

Additional observations from a re-analysis of the deposited data

Results flagged for a closer look

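The following genes carried a genotype effect that differed between the strains by a test of the difference itself (effect in BALB/c minus effect in C57BL/6, edgeR, adjusted over all genes). Among the 10 IGF genes this was Igfbp5, at -0.80 (adjusted p = 0.00984), higher in all 3 mutants than in all 3 wild type samples in C57BL/6 and overlapping in BALB/c. In the wider lists the difference was -0.53 for Ghr (adjusted p = 0.00492), -0.34 for Pik3r1 (adjusted p = 0.0356) and -0.26 for Shc1, an adaptor (adjusted p = 0.0460). It was 0.67 for Meg3 (adjusted p = 0.0220), 0.71 for Peg3 (adjusted p = 0.0357), 1.52 for Nnat (adjusted p = 0.0291) and 1.85 for Magel2 (adjusted p = 0.0488). Each of these except Igfbp5 and Ghr lost its call when single samples were left out. Total counts ended the calls of Ghr (-0.30, adjusted p = 0.0890), Shc1 (-0.03, adjusted p = 0.807) and Pik3r1 (-0.11, adjusted p = 0.287). A Y-linked covariate ended those of Shc1 (-0.27), Pik3r1 (-0.33), Nnat (1.47) and Magel2 (1.88). Shc1 was called in 3 of 8 other settings, and Magel2, called in 6 of 8, was also lost with no filter (1.84). Of 12 such fits without a sample, the call was kept in 2 for Shc1, 4 for Pik3r1, 8 for Meg3, 4 for Peg3, 5 for Nnat and 1 for Magel2.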

How the results depend on the processing

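No paired analysis was possible because the groups share no replicate numbers. The count of members called in BALB/c, 1, became 2 with DESeq2 and in a fit of the compared groups alone, and 0 with RLE size factors, total counts, a filter of 1 CPM and a Y-linked covariate; it ran from 0 to 1 when each sample was left out, and was kept only without BALB/c wild type 14. Over all genes the BALB/c calls, 22 of 16190, became 323 with DESeq2, 71 in the compared groups alone, 21 with RLE size factors and 19 with a filter of 1 CPM. They were 4 with total counts or a Y-linked covariate, 95 without BALB/c wild type 14, and 0 to 6 without any other sample. The count for the difference between strains, 1, became 2 with DESeq2 and ran from 1 to 2 when samples were left out. Over all genes its calls went from 1626 to 2707 with DESeq2 and ran from 624 to 3129 when samples were left out. The count averaged over strains, 3, became 5 with DESeq2 (Igf1, Igf2r, Igfbp2, Igfbp3 and Igfbp5) and ran from 2 to 4. Over all genes the calls of the average went from 1294 to 2203 with DESeq2 and ran from 493 to 2621 when samples were left out. Total counts also moved the split of all calls, from 47.1% to 31.2% higher between wild types, from 48.8% to 67.8% between mutants, from 54.4% to 90.5% for the difference between strains and from 59.0% to 33.1% for the average.

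Signs that turned belonged to differences that passed no test. With total counts they were, in C57BL/6, Igf2 (-0.17), Igf1r (-0.17), Igf2r (-0.0022), Igfbp3 (-0.18) and Igfbp4 (-0.16), between mutants Igf1 (0.0494), and for the difference between strains Igfbp2 (0.23). With a filter of 1 CPM they were Igf2 (-0.0025) and Igfbp3 (-0.0143) in C57BL/6 and the Igfbp2 difference (0.014). With halved counts they were Igfbp3 in C57BL/6 (-0.0088) and the Igfbp2 difference (0.0126), and with limma-voom the Igfbp2 difference (0.0022). With a Y-linked covariate they were Igf1r (-0.0221) and Igfbp3 (-0.0318) in C57BL/6 and the Igfbp2 difference (0.0507), and in the compared groups alone Igfbp3 (-0.0059). The cause was not tested. When each sample was left out, values ran from -0.0844 to 0.0964 for Igf2, -0.15 to 0.16 for Igfbp3 and -0.0044 to 0.0681 for Igfbp4 in C57BL/6, from -0.0555 to 0.0839 for Igfbp5 and -0.28 to 0.42 for Igfbp6 in BALB/c, from -0.133 to 0.013 for Igf1 between mutants, and from -0.23 to 0.15 for the Igfbp2 difference. Igfbp2 and Igfbp5 in C57BL/6 were called in 9 of 9 other settings and without any 1 of 6 samples. Depth limits Igfbp6, with 102 to 580 counts a sample. It also limits Magel2, with 24 to 136, and Nnat, with 64 to 454.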
